A study of Mus musculus with 5 samples.

Results

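Complement and Fc receptors were examined here as 8 genes: Cr2, Fcer2a and Fcgr2b, the receptors carried by B cells, Fcgr3, Fcer1g and Tyrobp, which belong mainly to myeloid and natural killer cells, and Cr1l and Cd55, membrane proteins that restrain complement. Every probe set of the array whose platform annotation gives 1 of these symbols alone was taken, which gave 17 of 45101 probe sets, and 1 more probe set is annotated to Cd55 and its copy Cd55b together. Of the 17, 15 passed a filter that left out the dimmest 40% of probe sets, and they covered 7 of the 8 genes. The cells were germinal centre B cells sorted from the spleen. The mice were littermates on a C57BL/6 background, 12 weeks old, that had received sheep red blood cells 7 days earlier. The WT group was 3 arrays (WT 1 to 3) from mice with the Cg1-Cre transgene, described as eGFP-negative. The REL group was 2 arrays (REL 1 and REL 2) from eGFP-positive cells of mice with Cg1-Cre and floxed Rel alleles (relfl/flCg1-Cre). Rel encodes the NF-kB subunit c-Rel, Cg1-Cre is carried by both groups, and recombination depends on activity of the Cg1 locus, which B cells transcribe after activation. Whether the arrays stand for separate animals is not given in the labels, so the p-values describe only how much these samples vary, and that variation may be technical.

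Complement receptors bind fragments of the C3 protein that are left on an antigen, and Fc receptors bind the constant part of antibodies. On B cells, Cr2 is part of a coreceptor with CD81 that lowers the amount of antigen needed for activation, while Fcgr2b carries an inhibitory motif in its tail and dampens signals when antigen comes bound to IgG. Fcer2a, also called CD23, is a low-affinity IgE receptor of resting follicular B cells. Fcgr3 is an activating IgG receptor that needs the signalling chain made by Fcer1g, and Tyrobp (DAP12) is the equivalent chain for many other myeloid and natural killer cell receptors. Cr1l (Crry) and Cd55 (decay-accelerating factor) keep complement from being activated on the cell's own surface. Several of the genes lie side by side in RefSeq's GRCm38.p6 assembly: Cr2 is the coding neighbour of Cr1l, which is followed by the regulator gene Cd46, Fcgr2b and Fcgr3 flank Fcgr4, and Cd55 lies beside Cd55b.

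The stretches before the start sites of 3 of these genes are shown because Cr2 and Fcgr2b were the members whose REL arrays lay apart from the WT arrays, in opposite directions, in the comparison with 1 probe set per gene, and because Cr1l is the neighbour of Cr2. They are the 250 bases upstream of the RefSeq start (build GRCm38.p6, minus strand), at chr1:195176720-195176969 for Cr2, chr1:170976072-170976321 for Fcgr2b and chr1:195131571-195131820 for Cr1l. Capitals mark matches on either strand to GGGNNNNNCC, a loose form of the NF-kB binding motif in which N is any base, and overlapping matches run together.
Cr2: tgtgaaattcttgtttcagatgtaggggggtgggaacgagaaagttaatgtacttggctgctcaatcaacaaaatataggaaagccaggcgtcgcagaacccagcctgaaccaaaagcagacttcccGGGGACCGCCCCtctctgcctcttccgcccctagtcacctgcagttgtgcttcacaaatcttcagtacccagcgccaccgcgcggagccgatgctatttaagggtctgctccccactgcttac
Fcgr2b: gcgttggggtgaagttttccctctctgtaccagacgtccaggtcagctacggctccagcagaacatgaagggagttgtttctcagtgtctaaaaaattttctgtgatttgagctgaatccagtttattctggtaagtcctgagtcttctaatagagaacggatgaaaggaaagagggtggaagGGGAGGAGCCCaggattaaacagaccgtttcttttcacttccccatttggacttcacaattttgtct
Cr1l: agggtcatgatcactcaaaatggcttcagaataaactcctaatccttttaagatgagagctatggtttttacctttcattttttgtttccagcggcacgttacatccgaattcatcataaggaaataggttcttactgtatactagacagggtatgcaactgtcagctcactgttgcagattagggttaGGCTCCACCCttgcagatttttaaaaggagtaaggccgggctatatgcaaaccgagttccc

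Promoters of 7 of the 8 genes were matched by symbol, and all 7 held at least 1 match in at least 1 of their starts. Of 32851 promoter stretches of the same length, 45.8% held a match. That share is counted per stretch, while the 7 genes are counted over 10 starts, so the counts are not alike. Of the 3 Fcer2a starts, for example, only 1 held a match. In Cr2 the matches, on both strands, formed 1 block that begins 123 bases before the start, and in Fcgr2b 1 block that begins 67 bases before it, while Cr1l held a single match 61 bases before its start. The ETS-like letters GAGGAA, the core that the myeloid factor PU.1 can bind, were found in 1 of the 7 genes, Fcgr3. They were found in 23.3% of all stretches, again counted per stretch. These are matches of letters, and no binding was measured.

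The values are MAS5 signals, a linear measure of probe set brightness, and differences are REL minus WT on the log2(signal + 16) scale, which understates changes of dim probe sets. Array medians lay between 30.1 and 54.6, lowest in REL 2, with the 2% trimmed mean of every array at 500. The labelled cell type was checked on its markers: the summed signal of 8 B cell markers ran from 54486 to 62830 in WT and from 56386 to 65586 in REL, and that of 9 germinal centre markers from 41843 to 50807 and from 42508 to 45947. Of these 9, 3 were higher and 6 lower in REL. For Rgs13 alone both REL arrays were below every WT array (4960 to 6058 in WT, against 4514 and 3321 in REL), as for 14.3% of all genes. The summed signal of 16 macrophage and monocyte markers ran from 1390 to 2456 in WT and was 8193 and 6465 in REL, although limma called 1 of the 12 tested, Vcam1. Both REL arrays exceeded every WT array for 10 of these 12, as for 9.53% of all genes. However, some of the 12, Vcam1 among them, passed the filter only through their REL signals, and 4 markers did not pass. With median centring of the arrays the median difference of all genes is 0.10 in place of −0.07, and no member's direction turned with it or with quantile normalization.

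Cr2 had signals of 2440, 2974 and 3216 in WT, against 1896 and 1411 in REL. The REL arrays were the lowest 2 of the 5, and REL 2 was the lower of them. The difference was −0.80 (SE 0.24, 95% interval −1.34 to −0.25), an average REL signal 0.575 times that of WT. Its p in limma was 0.00858 before adjustment and 0.425 after Benjamini-Hochberg adjustment over the 12082 genes tested, so it did not pass the threshold of 0.05. Cr2 is measured by a single probe set, 1425289_a_at, and its gene gives rise to both CR2 and the longer CR1 by alternative splicing in mice, so the value does not separate these forms. In bulk samples a smaller share of Cr2-expressing cells and less Cr2 RNA per cell cannot be told apart. Leaving out each array in turn gave −0.59 (without REL replicate 2) to −1.01 (without REL replicate 1), always lower in REL, with adjusted p from 0.181 to 0.776 in limma.

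Follicular dendritic cells also carry Cr2 and Fcgr2b. The summed signal of 11 of their and other stromal markers was 211 to 536 in WT, against 1365 and 683 in REL. Vcam1, which macrophages share, made up 671 and 390 of the REL sums. Without Vcam1 the REL 2 sum lay within the WT range, while that of REL 1 stayed above it. Both REL arrays exceeded every WT array for 3 of the 6 markers tested (Vcam1, Pdgfrb and Pdpn), as for 9.53% of all genes. Vcam1 and Pdpn passed the filter only through their REL signals. Both REL arrays were below every WT array for 1, Clu (−0.55, SE 0.45), as for 14.3% of all genes. Cxcl13, the chemokine of follicular dendritic cells, had signals of 29.5, 35.7 and 79.4 in WT, against 288 and 19.4 in REL, so that REL 1 was high and REL 2 low. Markers of follicular and marginal zone B cells, which carry more Cr2 than germinal centre cells do, had a summed signal of 9997 to 12342 in WT, against 10094 and 13671 in REL over 9 genes. Of the 9, 6 were higher and 3 lower in REL. The sum came mostly from Bank1 and S1pr3. Bank1 had 4397 to 5251 in WT, against 5464 and 5988 in REL, and S1pr3 had 3372.5 to 3643 in WT, against 1846 and 3655 in REL. The part of these cells in the Cr2 and Fcgr2b differences was not tested.

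Fcer2a had signals of 1437, 834 and 1398 in WT, against 1560 and 1326 in REL for its brighter probe set. REL 2 lay inside the WT range, and the lowest array was WT 2. The difference was 0.27 (SE 0.33, 95% interval −0.46 to 1.00), with an adjusted p of 0.891 in limma, and it was 0.02 without WT replicate 2. The dimmer probe set had 129, 140 and 101 in WT, against 186 and 92.4 in REL, so that the REL arrays lay on either side of the WT arrays.

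Fcgr2b was measured by 5 probe sets, 4 of them bright enough to be tested, and all 4 differences were above 0. The brightest had signals of 4409, 4629 and 3828 in WT, against 5197 and 4888 in REL. Both REL arrays exceeded every WT array, yet by little: the difference was 0.24 (SE 0.17, 95% interval −0.15 to 0.62) with an adjusted p of 0.781 in limma. Probe set 1455332_x_at had 2703, 2364 and 1892 in WT, against 3478 and 3284 in REL. Its difference of 0.56 (SE 0.23) had an unadjusted p of 0.0381 and an adjusted p of 0.601 over the 27025 probe sets tested with limma. Probe set 1451941_a_at showed 635, 494 and 309 in WT, against 1190 and 672 in REL, a difference of 0.94 (SE 0.46, limma adjusted p = 0.675) that was 0.53 without REL replicate 1. On 1435476_a_at, with 2975, 3411 and 2542 in WT, against 4074 and 3271 in REL, REL 2 lay within the WT range. The fifth probe set, 1447622_at, stayed between 0.164 and 1.93 on all arrays, below the filter level of 23.1. The ligand-binding parts of Fcgr2b and Fcgr3 are nearly identical, and the suffixes s and x in a probe set's name mark probes that can match more than 1 transcript, so some Fcgr2b signal could come from a related gene.

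**Figure D1:**
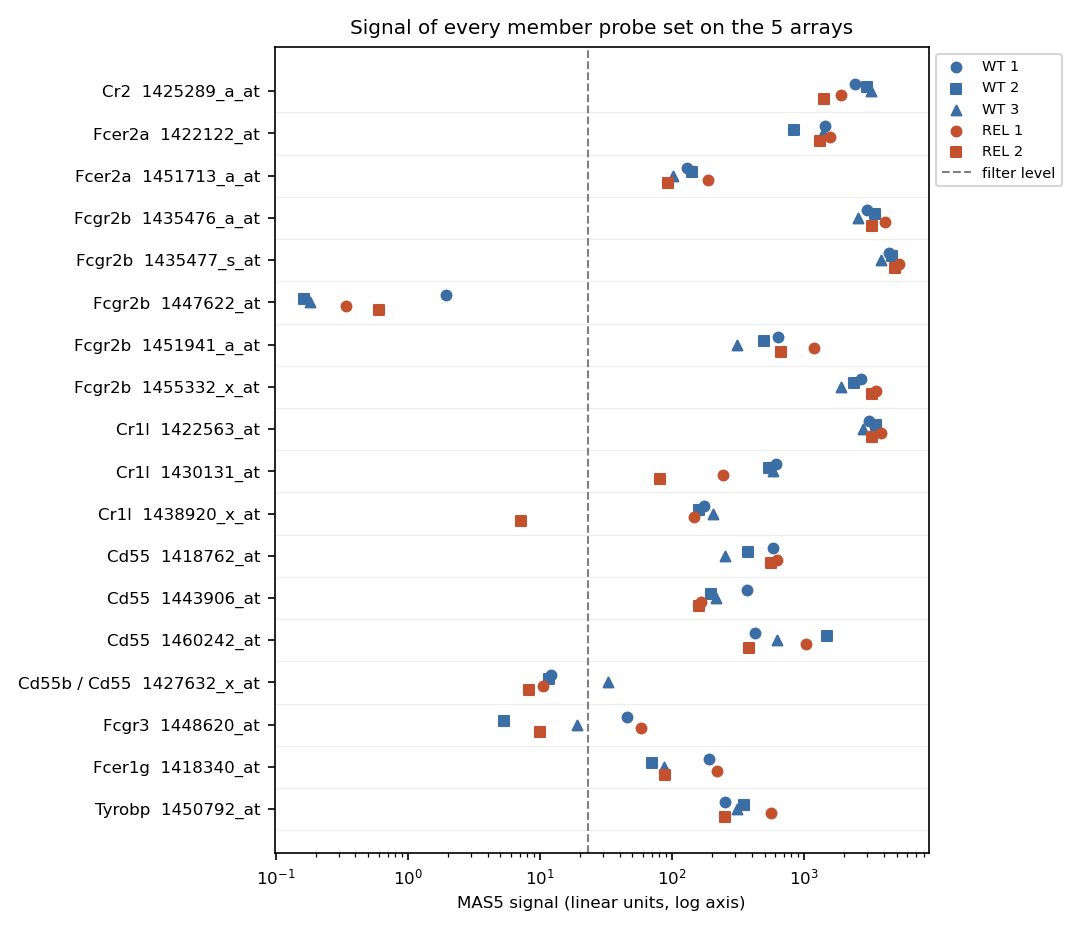
MAS5 signal (horizontal log axis) of the 18 probe sets annotated to the 8 genes, with blue points for WT arrays, orange points for REL arrays and a dashed line at the filter level of 23.1. Cr2 lies lower on both REL arrays (1896 and 1411 against 2440 to 3216), while Fcer1g and Tyrobp overlap between the groups.

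The complement regulator Cr1l gave different answers by probe set. The brightest, 1422563_at, had signals of 3109, 3505 and 2778 in WT, against 3794 and 3262 in REL, with the REL arrays in and just above the WT range and a difference of 0.17 (SE 0.20, 95% interval −0.28 to 0.62, limma adjusted p = 0.883). The second, 1430131_at, had 613, 543 and 578 in WT, against 241 and 80.7 in REL. Here the WT arrays were close together and both REL arrays far below them, at −1.91 (SE 0.55), with an unadjusted p of 0.00677 and an adjusted p of 0.447 over all probe sets in limma. The dimmest, 1438920_x_at, had 173, 161 and 205 in WT, against 145 and 7.12 in REL, a difference of −1.67 (SE 0.84, limma adjusted p = 0.683) that rested on REL 2. Without REL replicate 2 these dimmer probe sets were at −1.21 and −0.27, and without REL replicate 1 at −2.62 and −3.07. Set against the brightest probe set on the same array, the second was off its WT mean by 0.09, −0.25 and 0.17 in WT and by −1.49 and −2.68 in REL. The probe sets therefore gave unequal differences, and the mean of the 3 probe sets pointed lower in REL (−1.14, limma adjusted p = 0.572), against the direction of the brightest. Which transcript each probe set detects was not analysed here.

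**Figure D2:**
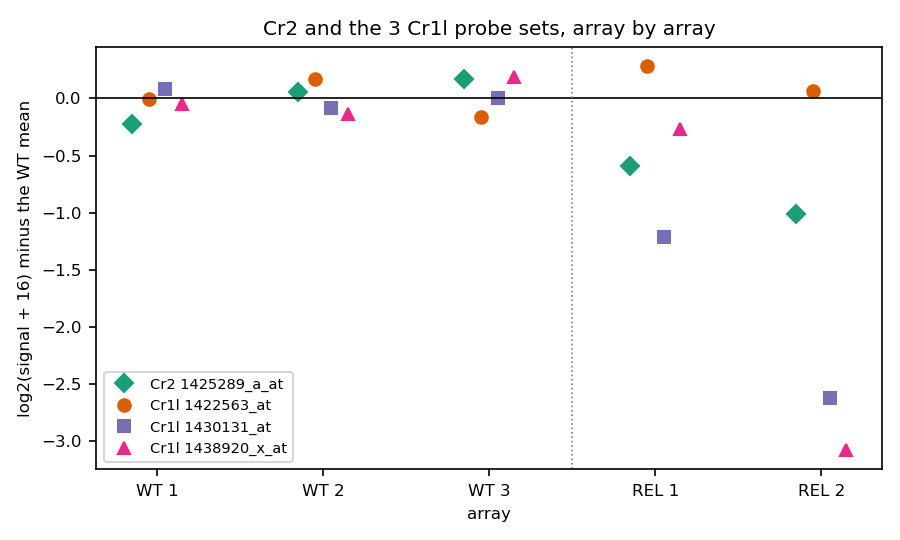
Log2(signal + 16) minus the mean of the WT arrays (vertical axis) on each array for Cr2 and the 3 Cr1l probe sets, each marker 1 probe set. Both REL arrays lie below 0 for Cr2 and for 1430131_at and 1438920_x_at, and above 0 for 1422563_at.

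Cd55 also split by probe set. The brightest, 1460242_at, ran from 423 to 1492 in WT and was 1037 and 381 in REL, a difference of −0.22 (SE 0.59, 95% interval −1.54 to 1.10) with a limma adjusted p of 0.96. Its spread within each group was larger than the difference between them, and the sign turned without REL replicate 2 (0.49) or without WT replicate 2 (0.29). Probe set 1418762_at had 576, 373 and 253 in WT, against 627 and 561 in REL (0.62, SE 0.48), while 1443906_at had 366, 198 and 213 in WT, against 165 and 158 in REL (−0.58, SE 0.57). The REL arrays lay below every WT array on the latter and overlapped with WT on the former. The probe set shared with Cd55b was dim, at 11.7 to 32.5 in WT, against 10.6 and 8.30 in REL.

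The myeloid members showed no separation between the groups. Fcgr3 had signals of 45.6, 5.36 and 19.1 in WT, against 58.0 and 10.1 in REL, and it was not tested because its mean on the log2(signal + 16) scale, on which the filter works, was below the filter. Fcer1g had 189, 70.9 and 86.4 in WT, against 220 and 87.6 in REL, so that WT 1 and REL 1 were high and the other arrays low. Its difference was 0.36 (SE 0.65, 95% interval −1.10 to 1.81, limma adjusted p = 0.934). Tyrobp had 251, 348 and 311 in WT, against 559 and 252 in REL, where REL 1 exceeded every other array and REL 2 equalled the lowest WT array within 1 unit. The difference of 0.31 (SE 0.53, 95% interval −0.87 to 1.49, limma adjusted p = 0.928) was −0.24 without REL replicate 1, and that of Fcer1g was then −0.24 as well. The intervals reach beyond a doubling, so these data do not show that the levels were alike.

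Among the macrophage markers Vcam1, an adhesion molecule, had signals of 0.833 to 2.46 in WT, against 671 and 390 in REL. It was the 1 gene called of 12082, or 0.00828% (4.89, SE 0.52, limma adjusted p = 0.0388). Every WT signal of Vcam1 was below the filter level of 23.1. It was thus tested only through its REL signals, and its p-value is a description only. No gene was called higher without any of the 3 WT arrays in turn, or without REL replicate 2. Csf1r, a growth factor receptor of macrophages, had 8.18 to 33.1 in WT, against 565 and 528 in REL (3.96, limma adjusted p = 0.126). Its WT mean on the log2(signal + 16) scale was below the filter, so it too passed only through its REL signals. The iron exporter gene Slc40a1 had 21.0 to 34.3 in WT, against 585 and 504 in REL (3.64, limma adjusted p = 0.126). The markers did not all point one way: Adgre1, a macrophage surface receptor, was below every WT array on both REL arrays (154 to 435 in WT, against 120 and 116 in REL), and Cd68 overlapped between the groups. This list was drawn up with earlier results on the same arrays known, and its values are given only as levels on these arrays. Of the 16 markers 4 were too dim to be tested, among them Cd14 at 1.92 to 3.48 in WT, against 41.7 and 2.81 in REL. The neutrophil list, whose cells carry Fcer1g and Tyrobp as well, summed to 198 to 1368 in WT, against 421 and 125 in REL over 9 genes. The 6 dendritic cell markers, from cells that also carry both adaptors, summed to 658 to 942 in WT, against 1014 and 1647 in REL. That sum came mostly from Flt3, with 649, 480 and 395 in WT, against 776 and 1286 in REL. Without Flt3 the REL 1 sum lay within the WT range. Of the 5 dendritic cell markers tested, 4 were higher in REL and 1, Zbtb46, was lower (−0.95, SE 0.71). The 6 natural killer markers summed to 205 to 437 in WT, against 581 and 636 in REL. Of these, Gzma, Klrd1, Klrk1, Ncr1 and Nkg7 were below the filter level on every array, and the sum came mostly from Prf1, the perforin gene, with 411, 175 and 227 in WT, against 555 and 616 in REL (1.15, SE 0.52, limma adjusted p = 0.611). The part of any of these cells in the Fcer1g, Tyrobp and Fcgr2b values was not tested.

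**Figure D3:**
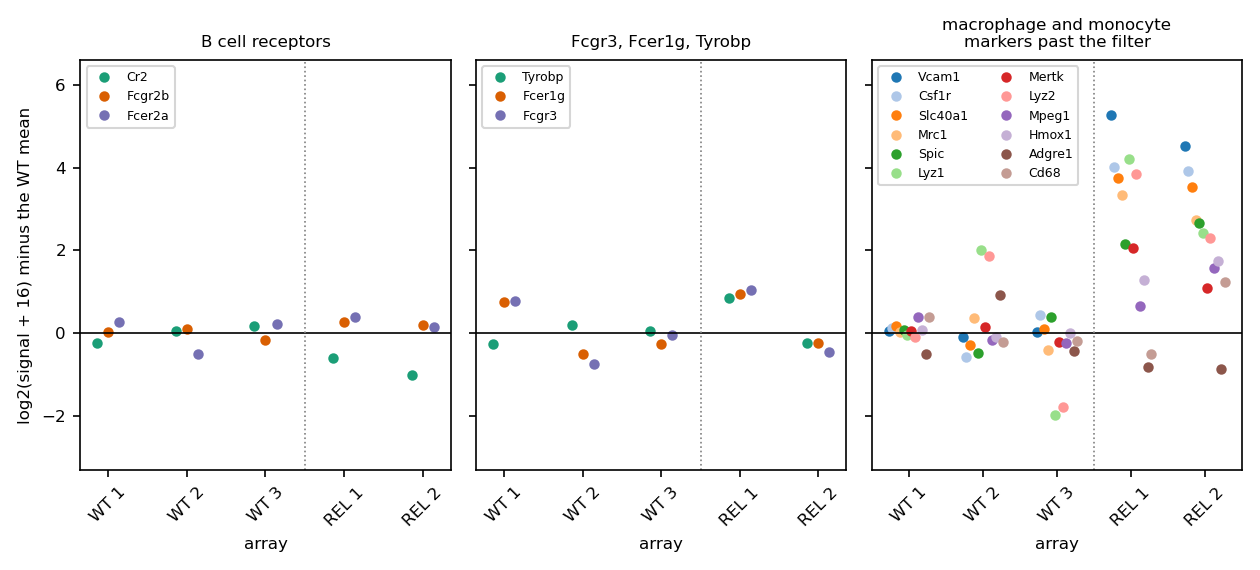
Log2(signal + 16) minus the WT mean (vertical axis) on each array, with each coloured point 1 gene, for the B cell receptors (left), Fcgr3, Fcer1g and Tyrobp (middle) and the 12 macrophage and monocyte markers tested (right). On REL 2 the 3 myeloid members lie within their WT range, and Vcam1, the marker that limma called, lies highest on both REL arrays.

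The mean log2 deviation of the 3 B cell receptors from their WT level was 0.03, −0.11 and 0.08 in WT, against 0.03 and −0.22 in REL. For the 3 myeloid members it was 0.43, −0.35 and −0.08 in WT, against 0.95 and −0.31 in REL, so that the REL arrays differed from each other by more than the groups did. Among the 7 genes tested, 5 were higher and 2 lower in REL, with a median difference of 0.24 against −0.07 over all 12082 genes. None was called by limma at an adjusted p under 0.05, and 1, Cr2, had an unadjusted p under 0.05, as did 995 or 8.24% of all genes. The REL arrays exceeded all WT arrays for 1 member, Fcgr2b, and for 9.53% of all genes, and below for 1, Cr2, and for 14.3% of all genes.

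Counted by probe set, 10 of the 15 tested were higher and 5 lower. None was called by limma, and 0% of all 27025 probe sets were, while 3 had an unadjusted p under 0.05, against 2135 or 7.9% of all probe sets. Both REL arrays were above every WT array for 3 (all of Fcgr2b, against 10.4% of all probe sets) and below for 4 (Cr2, 1 of Cd55 and 2 of Cr1l, against 13.1%). With counts of 3 and 4 among 15 probe sets that share genes, these shares are a description only.

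**Figure D4:**
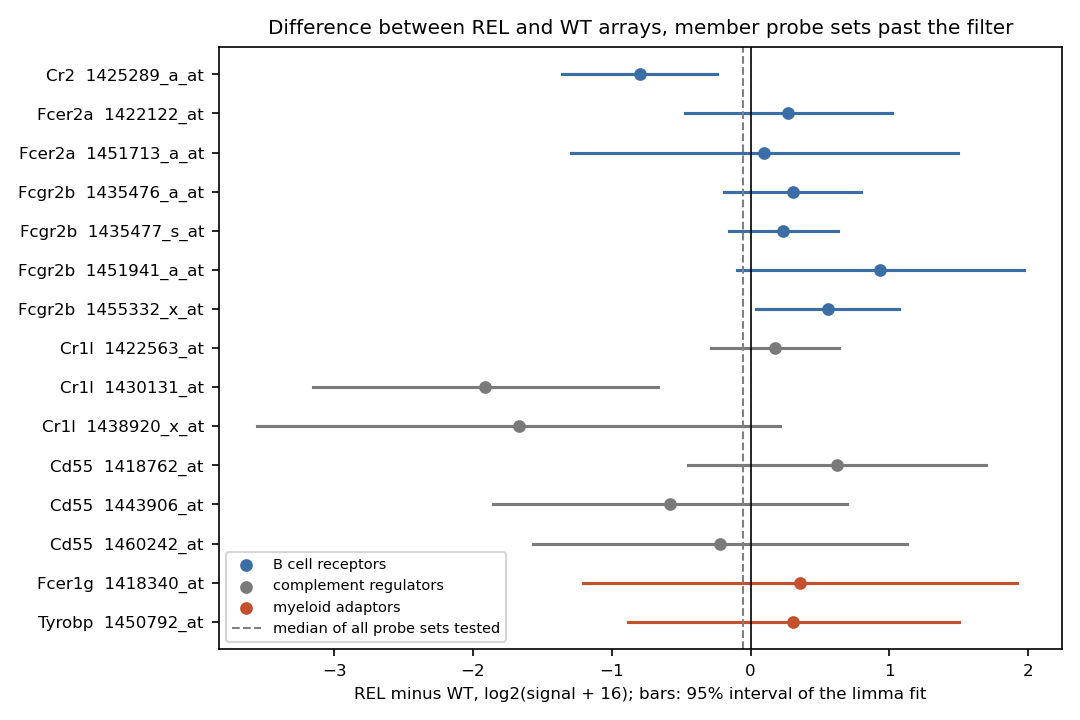
Difference between REL and WT arrays on the log2(signal + 16) scale (horizontal axis) for the 15 probe sets that passed the filter, with the 95% interval of the limma fit and a dashed line at the median of all probe sets tested (−0.05). The intervals of Cr2, 1 Cr1l and 1 Fcgr2b probe set do not include 0, before adjustment for the number tested.

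Other genes of these pathways were given by lists of 88 genes, of which 75 have a probe set of their own and 52 were tested. Of the 52, 29 were higher and 23 lower, with a median of 0.01, and none was called. The lowest limma adjusted p, 0.126, was that of C1qb, which passed the filter only through its REL signals. An unadjusted p under 0.05 was found for 3 higher and 4 lower of the 52, and for 8.24% of all genes. Of the 3 higher, C1qb and Masp2 passed the filter only through their REL signals, so their p-values are a description only.

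Among the partners of Cr2, Cd81, the tetraspanin of the coreceptor, was at −0.05 (SE 0.14) with signals of 9722 to 11920 in WT, against 9943 and 10985 in REL. Ifitm1, of a protein family found with the coreceptor, was at −1.14 (SE 0.55) and dim. Of the other complement receptors 3 were tested: the integrin chain genes Itgax at 1.22 (SE 0.68) and Itgb2 at −0.14 (SE 0.22), and Cd93 at 0.31 (SE 1.03). Itgax was dim, at 9.12 to 52.6 in WT, against 37.5 and 167 in REL, so that REL 1 lay within the WT range. Itgam, Vsig4, C3ar1 and C5ar1, receptors of myeloid cells, did not pass the filter. The surface regulators Cd46 and Cd59a were at −0.29 (SE 0.49) and −0.16 (SE 0.52).

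Complement components were tested for 9 of 24 genes, 5 of them higher and 4 lower. C1qb, a chain of the C1q protein made by macrophages, had signals of 3.91 to 27.0 in WT, against 531 and 786 in REL, at 4.32 (SE 0.60, limma adjusted p = 0.126). The C1qc chain was listed at 0.669 to 1.61 in WT and at 106 and 52.7 in REL and did not pass the filter. The C1qa chain, which did not pass either, was at 3.01 to 6.66 in WT, against 26.6 and 4.35 in REL. Its REL 2 value lay within the WT range. C8a, a chain of the membrane attack complex, had 184 to 404 in WT and at most 111 in REL (−1.80, SE 0.62). Masp2, a protease of the lectin pathway, was at 1.44 (SE 0.57) and C8b at −0.82 (SE 0.51), both from dim probe sets. Masp2 had 2.90 to 26.5 in WT, against 43.4 and 106 in REL, and passed the filter only through its REL signals.

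Of the other Fc receptors 9 of 14 were tested, 4 higher and 5 lower. Trim21, an antibody receptor of the cytosol, had 3275 to 3645 in WT, against 2582 and 2124 in REL, below every WT array (−0.57, SE 0.20, limma adjusted p = 0.479), and its second, dim probe set pointed the other way (0.51). The neonatal Fc receptor gene Fcgrt was at 0.56 (SE 0.62), Pigr at −0.53 (SE 0.61) and Fcgr1, the high-affinity IgG receptor of myeloid cells, at −0.38 (SE 0.53). Fcer1a, the IgE-binding chain of mast cells and basophils, was at 0.511 to 1.98 on all arrays.

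In the signalling chains, the B cell counterparts of Fcer1g and Tyrobp, Cd79a and Cd79b, were at 0.08 (SE 0.14) and −0.09 (SE 0.15). Of the adaptors and Tyrobp partners 7 of 12 were tested. Cd247 was at 1.72 (SE 0.95), with 16.3 to 307 in WT, against 630 and 168 in REL, so that REL 2 lay within the WT range. Hcst, the neighbour of Tyrobp on the chromosome, was at −0.80 (SE 0.63), Siglech at 0.63 (SE 0.51) and Trem3 at −0.81 (SE 0.68). Trem2 and Clec5a, which signal through Tyrobp, were below the filter.

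Among the kinases and relays 9 of 11 tested were higher. Fgr, a Src-family kinase of myeloid cells and some B cells, had signals of 578, 210 and 361 in WT, against 1305 and 1550 in REL (1.96, SE 0.47, limma adjusted p = 0.337). Its other probe set was at 0.62 with overlapping arrays. Fyn, Btk and Blnk were at 0.35 (SE 0.34), 0.18 (SE 0.20) and 0.18 (SE 0.18).

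The inhibitory side of Fcgr2b was tested for 6 of 6 genes, 4 higher and 2 lower. Inpp5d encodes SHIP1, the lipid phosphatase that the Fcgr2b tail recruits. It had 3758, 3806 and 4022 in WT, against 2187 and 2815 in REL, with both REL arrays below every WT array (−0.63, SE 0.20, limma unadjusted p = 0.0103 and adjusted p = 0.425). Its dimmer probe set was at −0.15 with overlapping arrays. The adaptors Dok3 and Dok1 were at 0.40 (SE 0.26) and 0.35 (SE 0.38). The phosphatase gene Ptpn11 was at 0.16 (SE 0.23) for its brightest probe set, while its dimmer probe sets pointed in opposite directions. The lower of them had 49.3 to 69.7 in WT, against 2.68 and 28.2 in REL (−1.348, SE 0.570, limma adjusted p = 0.608). The other had 23.3 to 86.4 in WT, against 131 and 153 in REL (1.495, SE 0.654, limma adjusted p = 0.623).

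Of the genes around Fcer2a, Adam10, the protease that sheds CD23, had signals of 5307 to 6316 in WT, against 5932 and 5697 in REL and a difference of 0.00 (SE 0.16). Itgb3, an integrin chain that can bind CD23, was lower on both REL arrays (1965 to 2661 in WT, against 1292 and 1211 in REL; −0.84, SE 0.25, limma adjusted p = 0.425), and its partner Itgav was at −0.09 (SE 0.15).

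The genes whose profile over the 5 arrays was most like each member were taken by the smallest root mean square difference of log2 deviations from the WT mean. For Cr2 these were Dcaf5 (0.02), Stxbp6 (0.07) and Parm1 (0.07), with differences of −0.79, −0.81 and −0.74. For Fcgr2b they were Mob1a, Zfp36l2 and Wdfy4 (0.04 each), and for Fcer2a Susd6 (0.05), Foxm1 (0.06) and Mxd4 (0.07). For Cr1l they were Sfpq (0.02), Virma (0.03) and Ankrd12 (0.04), and for Cd55 9430015G10Rik (0.14), Kif20b (0.16) and 2810408B13Rik (0.18). For Fcer1g they were Dpy19l4 (0.11), Abcg1 (0.13) and Tcl1b3 (0.13), and for Tyrobp the complement component gene C9 (0.04), Cysltr2 (0.06) and Slc41a1 (0.06). With 5 arrays and 12082 genes such closeness is a description.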

How the data were processed

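The authors deposited 1 table of signal intensities for 5 single-colour arrays, on a linear scale. The submitters' processing notes name MAS5, with no version. MAS5 scales each array by itself and subtracts mismatch probes, so low signals are noisy after log transformation. Per the labels' protocols, RNA from few sorted cells was amplified before labelling. Gene symbols came from the platform annotation, and the gene comparison did not use 932 with several symbols and 9211 with none.

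The scale used was log2(signal + 16). Probe sets in the lowest 40% by mean were left out, the brightest probe set was kept per gene (12082 genes), and every probe set past the filter was also tested (27025). Both fits used limma 3.58.1 in R 4.3.3 (group as the single term, mean-variance trend, 3 residual degrees of freedom, Benjamini-Hochberg adjustment over all features tested, two-sided, threshold 0.05 on the adjusted p). The number of arrays limits the precision. The fits were first tested on simulated data.

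The members and gene lists were chosen with earlier results of these data known. Named were all members, up to 4 genes per pathway list by smallest p, the 3 genes most like each member, and, for some of the marker lists, markers by smallest p. Adgre1, Cd68, Cxcl13, Clu, Pdpn, Cd14, Itgam, Vsig4, C3ar1, C5ar1, C1qa, C1qc, Fcer1a, Cd79a, Cd79b, Trem2, Clec5a and the natural killer markers fall outside this rule. They were chosen with their values in view. The alternatives changed the pseudocount (1, 64), the filter (none, 60%), the normalization (quantile, median centring), the choice of probe set (their mean per gene), the trend (none) and the design (replicate number as a block, each array left out). Promoter sequences are from RefSeq (GRCm38.p6). Tables and figures were made in Python 3.11.15 (pandas 2.3.3, matplotlib 3.10.9).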

Additional observations from a re-analysis of the deposited data

How the results depend on the processing

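No member gene or probe set was called under any alternative run (lowest limma adjusted p 0.181 among 98 gene values and 0.149 among 195 probe set values), and direction was kept in 93 and 188 of them. The filter and trend settings left the differences themselves unchanged, so direction could not turn in those runs. Nor could it turn with the mean of probe sets for a gene with 1 probe set. Leaving out 1 array moved Fcer1g between −0.237 and 0.952, Tyrobp between −0.242 and 0.860, Cd55 between −0.922 and 0.487 (0.285 without WT replicate 2) and the dimmer Fcer2a probe set between −0.350 and 0.547 (−0.023 without WT replicate 3), so that each changed direction. The brighter Fcer2a probe set kept its direction but was at 0.021 without WT replicate 2. The replicate block gave the dimmer Fcer2a probe set the same value as leaving out WT replicate 3 (−0.023), since no REL array shares that number. The direction turned for Cr1l with the mean of probe sets (−1.14). The cause was not tested, except that leaving out an array leaves fewer arrays, and the lone REL array is then assumed to vary like the WT group.

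Over all genes, 1 was called higher and 0 lower. The count higher was 0 with a pseudocount of 1 or 64, with no filter, with a 60% filter, without the mean-variance trend and with the mean of probe sets, 3 with median centring and 10 with the replicate block. The count lower was 1 with quantile normalization and 8 with the replicate block. Over probe sets the block gave 7 higher and 8 lower against 0 and 0. Leaving out 1 array gave 0 to 3 genes higher and 0 to 5 lower, and 0 to 5 probe sets higher and 0 to 1 lower. Same-numbered arrays did not deviate together (correlations of −0.00 and 0.01), so the numbers are not taken as pairs. With the replicate block Cr2 was at −0.71 (limma adjusted p = 0.559), with 1 residual degree of freedom.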
